A study of Mus musculus with 10 samples.

Results

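The 10 genes described here form the G1 arm of the cell cycle engine: the D-type cyclins Ccnd1, Ccnd2 and Ccnd3, their kinases Cdk4 and Cdk6, the E-type cyclins Ccne1 and Ccne2, and the pocket proteins Rb1, Rbl1 and Rbl2. They were chosen by name, for their function, with earlier results of these data known. They are 10 of the 50600 genes in the deposited tables of each library. All 10 passed the filter on low counts that left 12212 genes to be tested. D-type cyclins are made when growth signals reach a cell, and they activate CDK4 and CDK6. These kinases phosphorylate the retinoblastoma protein (Rb1) and its relatives p107 (Rbl1) and p130 (Rbl2). Unphosphorylated pocket proteins hold the E2F transcription factors, which switch on genes of S phase, the E-type cyclins among them. Cyclin E then activates CDK2 and completes the phosphorylation. Fibroblasts that are reprogrammed to pluripotency need to divide, and embryonic stem cells, in contrast to fibroblasts, have a short G1 phase with little cyclin D.

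The libraries came from mouse embryonic fibroblasts (MEFs) of E13.5 embryos of a cross labelled CBA/CaJ X C57BL/6J. According to the methods the cells carried an Oct4-GFP reporter. Every group carried the factors Oct4, Klf4 and Sox2 (OKS), delivered by retrovirus from PlatE packaging cells, and iCD1 medium followed infection. Whether the day 0 libraries were taken before or after the change to iCD1 is not given in the sources used here, so a change of medium may lie within each comparison with day 0. One arm, labelled OKS+DR, also received the red fluorescent protein DsRed and is called OKS + DsRed, and the other received the forkhead transcription factor FoxO6 and is called OKS + FoxO6. The 10 libraries are 1 per arm at days 0, 1, 3, 5 and 7, with no replicate of any arm and day. The comparison asks how the transcriptome of reprogramming cells differs over time when FoxO6 is added. Nothing states that the days of an arm were separate infections, so every p-value below measures only the spread between these libraries, which may come from 1 culture per arm. Expression is given as TPM, a level scaled to library size and to transcript length, and counts are expected counts from RSEM. Libraries held 1208379 to 2225750 expected counts. Foxo6 itself was at 0.61 to 2.29 TPM in OKS + DsRed and at 762.11 to 1356.41 TPM in OKS + FoxO6, and it was already high in the OKS + FoxO6 library of day 0, so day 0 is not a state before FoxO6. Fibroblast markers were present at day 0. All 8 of those tested were called lower at day 7 than at day 0 (edgeR, adjusted p under 0.05), where 10.1% of all tested genes were. In bulk RNA a lower level cannot be told apart from fewer cells that express the gene.

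Ccnd1, Ccnd2, Ccnd3 and Cdk4 were the abundant members. Their mean TPM over the 10 libraries was 361.98 for Ccnd1, 258.71 for Ccnd2, 242.22 for Ccnd3 and 381.8 for Cdk4, and only 2.77% to 4.68% of the tested genes had a higher mean. Rb1 (65.21 TPM), Ccne1 (45.97 TPM) and Cdk6 (31.48 TPM) lay lower. Rbl2 (20.52 TPM), Ccne2 (19.85 TPM) and Rbl1 (17.97 TPM) were the scarcest, with 13 to 112 reads per library among these 3 genes. From library to library, Cdk4 varied least, with a highest TPM 1.6 times its lowest, and Ccne2 varied most, from 5.16 TPM to 51.5 TPM, or to 29.3 TPM without the OKS + DsRed library of day 1.

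**Figure D1:**
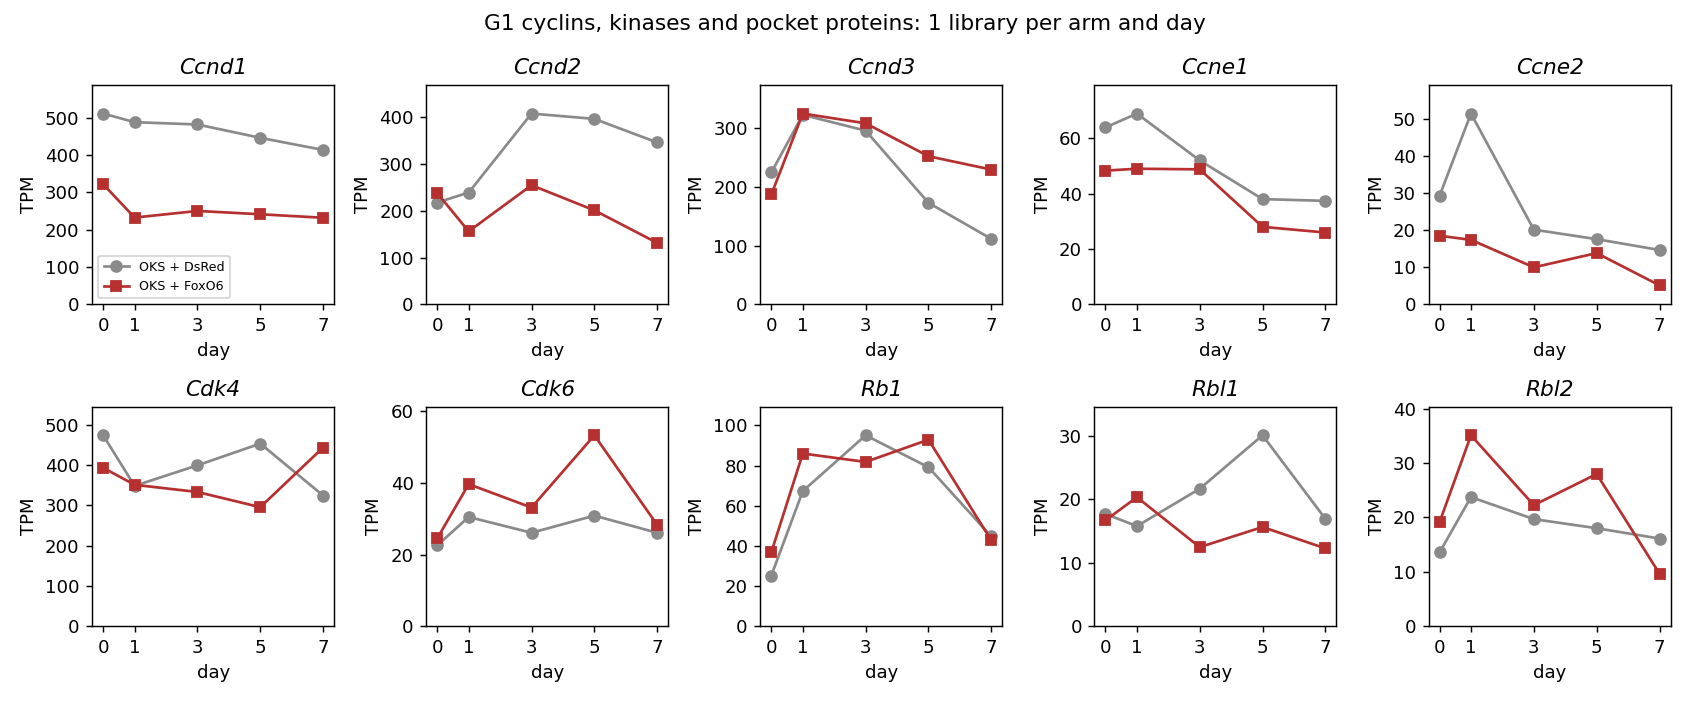
TPM (vertical axes, from 0, a scale for each gene) of the 10 genes against day, with 1 point per library, for OKS + DsRed (grey circles) and OKS + FoxO6 (red squares). The arms are apart on every day for Ccnd1, at day 7 OKS + FoxO6 lies below for Ccnd2 and above for Ccnd3, and Rb1 is high at days 1, 3 and 5 in both arms.

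Because FoxO6 is a forkhead factor and the pocket proteins act on E2F sites, the promoters of the members were searched for the letters of these sites. RefSeq windows (GRCm38.p6) were at hand for 6 of the 10 genes: Ccnd3, with 2 starts, Ccne1, Cdk4, Cdk6, Rbl1 and Rbl2. The 250 bases before each start were read on both strands, among 32851 such windows in all. The forkhead letters GTAAACA were in 3.17% of all windows and in 1 member, Ccnd3, in the window chr17:47504801-47505050 before the first start, 243 bases upstream. The second Ccnd3 window, chr17:47593217-47593466, lies within the span of the gene before a downstream start and does not hold these letters. E2F letters (taken as TTGGCGC, or else TTCGCGC, or else TTCCCGC) were in 6.69% of all windows and in 1 member, Rbl1, 17 bases before its start, in chr2:157204535-157204784 on the minus strand. The letters of the cell cycle homology region (taken as TTTGAA, or else as TTCGAA) were in 17.1% of all windows and in 1 member, Rbl2. The 3 sequences are shown 5′ to 3′ in the direction of the gene because they hold, or for the second Ccnd3 start lack, the letters searched for, with the match in capitals. A match is a string of letters and not a bound site.
Ccnd3, first start: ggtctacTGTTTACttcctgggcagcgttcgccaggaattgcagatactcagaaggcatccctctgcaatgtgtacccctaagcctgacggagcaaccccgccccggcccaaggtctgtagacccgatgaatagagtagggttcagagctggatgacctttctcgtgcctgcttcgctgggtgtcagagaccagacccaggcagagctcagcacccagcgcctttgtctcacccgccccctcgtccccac
Ccnd3, second start: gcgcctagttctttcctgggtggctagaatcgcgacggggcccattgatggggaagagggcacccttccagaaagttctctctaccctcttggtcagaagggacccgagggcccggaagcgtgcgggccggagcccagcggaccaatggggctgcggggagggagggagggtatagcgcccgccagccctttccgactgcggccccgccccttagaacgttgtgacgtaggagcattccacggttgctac
Rbl1: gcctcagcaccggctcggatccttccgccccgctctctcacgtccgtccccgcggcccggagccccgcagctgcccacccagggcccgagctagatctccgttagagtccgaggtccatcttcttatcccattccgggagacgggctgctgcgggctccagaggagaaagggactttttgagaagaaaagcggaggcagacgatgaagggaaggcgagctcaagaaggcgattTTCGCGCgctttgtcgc

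Among the D-type cyclins, Ccnd1 and Ccnd2 were lower in OKS + FoxO6 and Ccnd3 was not. Ccnd1 (ENSMUSG00000070348, chromosome 7, 144929931 to 144939925, minus strand), the cyclin most tied to growth factor signalling in fibroblasts, was at 511, 488, 482, 446 and 414 TPM at days 0, 1, 3, 5 and 7 in OKS + DsRed. In OKS + FoxO6 it was at 322, 233, 250.4, 242 and 232 TPM on the same days. Every OKS + FoxO6 library lay below every OKS + DsRed library, and the gap was there from day 0. Ccnd1 was the only member whose arms did not overlap, where 1.42% of all tested genes had OKS + FoxO6 wholly below. Fitted over the 5 days with edgeR's quasi-likelihood test, its log2 fold change was -0.90 (SE 0.105, 95% interval -1.13 to -0.67, adjusted p = 0.000415). The ratio of the arms in CPM, which are counts scaled to library size alone, was 0.569, 0.471, 0.521, 0.512 and 0.618 on the 5 days in turn. The upper end of its 95% counting interval was 0.675 or less on each day. These intervals cover counting error only.

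Ccnd2 (ENSMUSG00000000184, chromosome 6, 127125162 to 127152193, minus strand) was near the same TPM in both arms at day 0 and lower in OKS + FoxO6 at the 4 later days. In OKS + DsRed it was at 218, 239, 408, 396 and 346 TPM at days 0, 1, 3, 5 and 7, so that it was higher from day 3 on than before. In OKS + FoxO6 it was at 238, 156, 255, 201 and 131 TPM, and by TPM the last library was the lowest of all 10. By CPM day 1 was lower than day 7 in OKS + FoxO6, at 0.696 against 0.765 times day 0. The effective length of Ccnd2 ran from 4463 to 6114 bases between libraries. The CPM ratio of the arms went from 0.874 at day 0 (95% counting interval 0.799 to 0.956) to 0.455 at day 7 (0.417 to 0.496). Over the 5 days the fitted log2 fold change was -0.83 (SE 0.154, 95% interval -1.17 to -0.49, edgeR adjusted p = 0.0058). The change of this difference with time was -0.14 log2 units per day and missed the threshold (edgeR adjusted p = 0.0988).

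Ccnd3 (ENSMUSG00000034165, chromosome 17, 47505051 to 47599691, plus strand) had an arm difference that changed with time, toward a higher level in OKS + FoxO6. It was at 224, 322, 295, 172 and 111 TPM at days 0, 1, 3, 5 and 7 in OKS + DsRed. In OKS + FoxO6 it was at 187, 324, 307, 251 and 229 TPM. Both arms were high at days 1 and 3, and at days 5 and 7 the OKS + DsRed libraries were the lower ones. The CPM ratio of OKS + FoxO6 to OKS + DsRed was 0.732, 0.959, 1.07, 1.35 and 2.17 on the 5 days in turn, with a 95% counting interval of 1.82 to 2.6 on the last. The arm difference grew by 0.20 log2 units per day (SE 0.0389, 95% interval 0.12 to 0.28, edgeR adjusted p = 0.025). Ccnd3 was the only member with a trend past the threshold, 1 of 10 where 1.6% of all genes had one in either direction (75 falling and 121 rising, or 74 and 222 with the trend of each library with effective length taken out). The call was lost without the libraries of day 0 (adjusted p = 0.117), day 3 (0.0521) or day 7 (0.313). It was also just lost when counts were taken per effective length of the gene in each library (0.0527). Averaged over the days the arm difference missed the threshold (log2 fold change 0.22, 95% interval -0.20 to 0.64, edgeR adjusted p = 0.518).

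**Figure D2:**
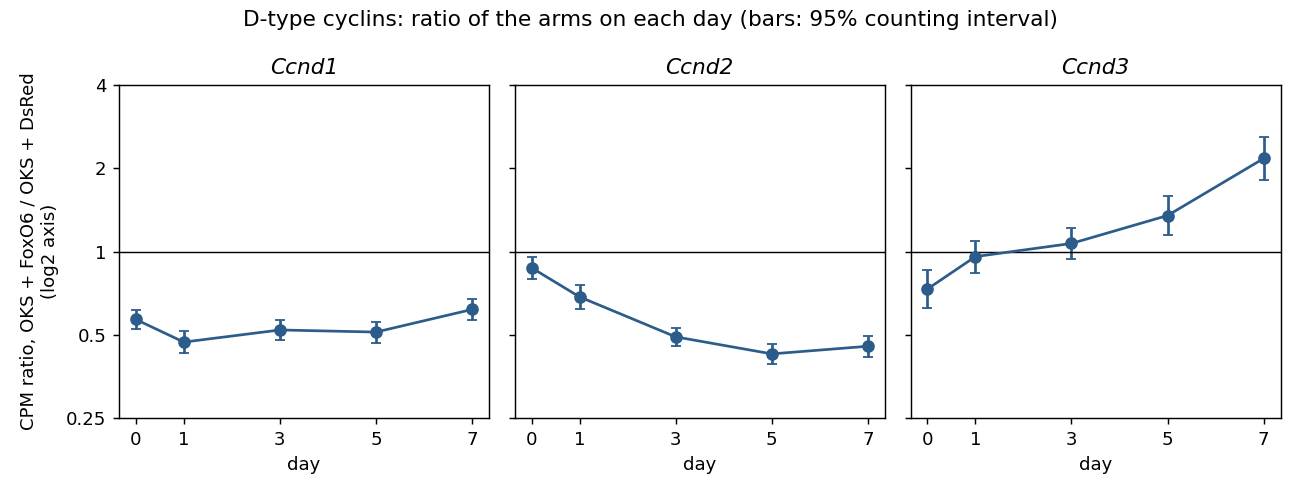
Ratio of CPM in OKS + FoxO6 to OKS + DsRed (log2 axis) for the 3 D-type cyclins on each day, 1 library per arm, with 95% counting intervals as bars and a line at 1. Ccnd1 stays between 0.471 and 0.618, Ccnd2 goes from 0.874 to 0.455 and Ccnd3 from 0.732 to 2.17.

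The make-up of the D-type cyclin transcripts at day 7 was unlike in the 2 arms. The summed TPM of the 3 genes was 870.8 to 1184.3 in OKS + DsRed and 592.5 to 812.3 in OKS + FoxO6, with no overlap. Ccnd1 made up 53.6% (first day) and 47.5% (last day) of this sum in OKS + DsRed, against 43.1% and 39.2% in OKS + FoxO6. Ccnd2 went from 22.8% to 39.7% in OKS + DsRed and from 31.8% to 22.2% in OKS + FoxO6. Ccnd3 went from 23.5% to 12.8% in OKS + DsRed and from 25.0% to 38.6% in OKS + FoxO6. In OKS + FoxO6 the Ccnd3 share was largest at day 1, at 45.4%, and was 37.8% and 36.2% at days 3 and 5. By TPM, Ccnd3 ranked last of the 3 at day 7 in OKS + DsRed and beside Ccnd1 in OKS + FoxO6. By counts, not per length, it ranked last in both arms at day 7, with 5.5% in OKS + DsRed and 19.3% in OKS + FoxO6, from 12.0% and 12.6% at day 0. The Ccnd1 share by counts was 53.1% and 43.4% at day 0, and at day 7 it was 41.5% and 41.6%, so the gap in the Ccnd1 share by TPM at day 7 was not there by counts.

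**Figure D3:**
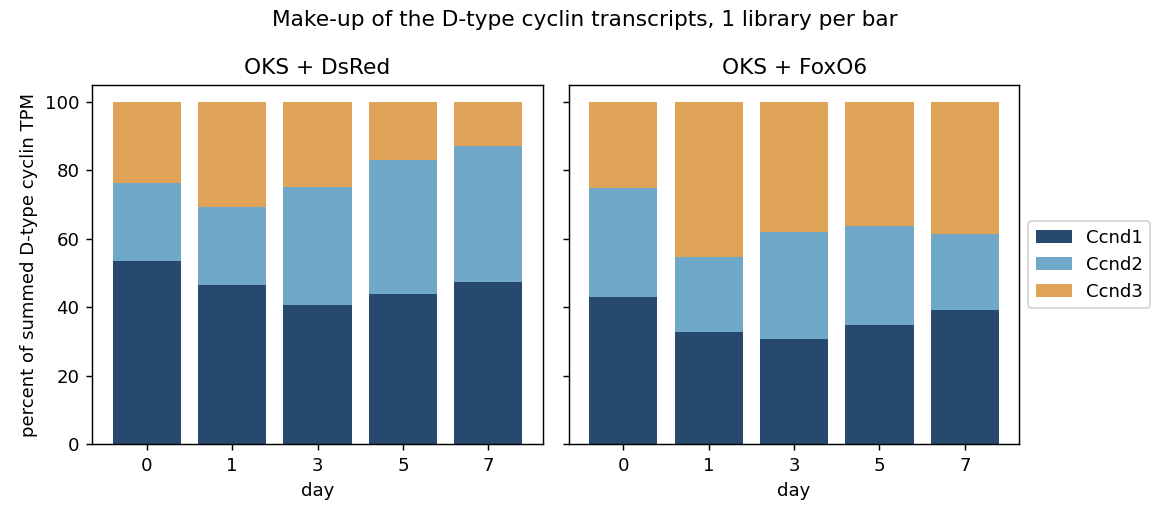
Percent of the summed D-type cyclin TPM held by Ccnd1, Ccnd2 and Ccnd3 (stacked bars to 100) on each day, 1 library per bar, with OKS + DsRed left and OKS + FoxO6 right. The Ccnd3 share at day 7 is 12.8% in OKS + DsRed and 38.6% in OKS + FoxO6.

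Neither kinase passed the test of the arm shift, of the days or of the trend. Cdk4 (ENSMUSG00000006728, chromosome 10, 127063534 to 127067920, plus strand) was at 474, 349, 399.5, 454 and 325 TPM at days 0, 1, 3, 5 and 7 in OKS + DsRed and at 393.5, 351, 333, 296 and 444 TPM in OKS + FoxO6. The ranges of the arms overlapped, and the fitted log2 fold change of -0.07 had a 95% interval of -0.33 to 0.19 (edgeR adjusted p = 0.775). Cdk6 (ENSMUSG00000040274, chromosome 5, 3341485 to 3531008, plus strand) was at 22.6, 30.5, 26.1, 30.9 and 26.1 TPM in OKS + DsRed and at 24.5, 39.6, 33.1, 53.3 and 28.3 TPM in OKS + FoxO6. Its TPM was higher in OKS + FoxO6 on all 5 days, but by CPM the ratio was 0.987 at day 0 and 0.99 at day 1, and its effective length varied from 6836 to 11464 bases between libraries. The arms overlapped and the fitted difference of 0.25 log2 units (95% interval -0.04 to 0.54) did not pass (edgeR adjusted p = 0.257). Cdk4 held 84.7% to 95.5% of the TPM of the pair in every library.

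Both E-type cyclins fell between day 0 and day 7 in the fit over the 2 arms. Ccne1 (ENSMUSG00000002068, chromosome 7, 38097984 to 38107534, minus strand), which with CDK2 drives entry into S phase, was at 63.8, 68.8, 51.9, 38.0 and 37.4 TPM at days 0, 1, 3, 5 and 7 in OKS + DsRed. In OKS + FoxO6 it was at 48.3, 48.9, 48.7, 28.0 and 25.9 TPM. The libraries of days 5 and 7 were the 2 lowest of each arm. Its fitted log2 change from day 0 to day 7 was -0.88 (SE 0.249, edgeR adjusted p = 0.0267), and its arm difference missed the threshold (log2 fold change -0.27, 95% interval -0.62 to 0.07, adjusted p = 0.30). With DESeq2 the fall of Ccne1 missed the threshold (adjusted p = 0.105), and it was lost as well without any 1 of the 4 libraries of days 0 and 7.

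Ccne2 (ENSMUSG00000028212, chromosome 4, 11191351 to 11204779, plus strand), the second cyclin E, was at 29.3, 51.5, 20.2, 17.6 and 14.7 TPM in OKS + DsRed and at 18.6, 17.4, 10.03, 13.9 and 5.16 TPM in OKS + FoxO6. It was lower in OKS + FoxO6 on all 5 days, and the lowest library of each arm was day 7. The log2 change from day 0 to day 7 was -1.49 (SE 0.325, edgeR adjusted p = 0.0072). These 2 falls were the only members called lower at day 7, where 10.1% of all tested genes were. The arm difference of Ccne2 depended on the unit. On counts it was -0.38 log2 units (95% interval -0.82 to 0.06, edgeR adjusted p = 0.249). With counts taken per effective length in each library, a setting chosen after the data were seen, it was -1.02 (edgeR adjusted p = 0.0228). The effective length that RSEM gave Ccne2 was 1032 to 2375 bases in OKS + DsRed and 2845 to 2890 bases in OKS + FoxO6. At day 1, 40.24 counts in OKS + DsRed and 41 in OKS + FoxO6 stood behind 51.5 and 17.4 TPM. This length is an average over the isoforms that the reads of a library were assigned to.

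No pocket protein passed the test of the arm shift, and Rb1 changed with time. Rb1 (ENSMUSG00000022105, chromosome 14, 73183673 to 73325822, minus strand), the retinoblastoma protein, was at 25.3, 67.3, 95.1, 79.2 and 44.7 TPM at days 0, 1, 3, 5 and 7 in OKS + DsRed and at 36.9, 86.0, 81.8, 92.9 and 42.8 TPM in OKS + FoxO6. In both arms days 1, 3 and 5 were high and days 0 and 7 were low. Its CPM were 2.09, 3.06 and 2.46 times those of day 0 at days 1, 3 and 5 in OKS + DsRed, and 2.17, 2.04 and 2.14 times in OKS + FoxO6. Rb1 changed over the days (edgeR F test, adjusted p = 0.00378) while its arm difference missed the threshold (log2 fold change 0.18, 95% interval -0.10 to 0.46, adjusted p = 0.41). With Ccne1 (adjusted p = 0.033) and Ccne2 (0.0442) it made 3 of 10 members that changed over the days, where 20.0% of all genes did. DESeq2 kept Rb1 alone of these 3, with adjusted p = 0.123 for Ccne1 and 0.215 for Ccne2. Without the libraries of day 0 no member passed (adjusted p of Rb1 0.0947).

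Rbl1 (ENSMUSG00000027641, chromosome 2, 157145893 to 157204534, minus strand), which codes for p107 and is itself a known E2F target, was at 17.7, 15.8, 21.7, 30.1 and 16.9 TPM in OKS + DsRed and at 16.7, 20.4, 12.5, 15.7 and 12.3 TPM in OKS + FoxO6. It was lower in OKS + FoxO6 on 4 of 5 days, with CPM ratios of 0.517 at day 3 and 0.46 at day 5. The fitted difference of -0.49 log2 units (95% interval -0.96 to -0.02) did not pass after adjustment (edgeR adjusted p = 0.161). Rbl2 (ENSMUSG00000031666, chromosome 8, 91070057 to 91123844, plus strand), which codes for p130, the pocket protein of resting cells, was at 13.6, 23.7, 19.7, 18.0 and 16.1 TPM in OKS + DsRed and at 19.1, 35.1, 22.3, 28.0 and 9.66 TPM in OKS + FoxO6. By TPM it was higher in OKS + FoxO6 on the first 4 of the 5 days and lower at day 7. By CPM the ratio of the arms at day 7 was 0.949 (95% counting interval 0.617 to 1.45). The effective length of Rbl2 at day 7 was 3378 bases in OKS + DsRed and 4854 bases in OKS + FoxO6. The fitted difference was 0.26 log2 units (95% interval -0.08 to 0.59, edgeR adjusted p = 0.311). Rb1 held 44.7% to 70.2% of the TPM of the 3 pocket proteins, with its smallest share at day 0 in each arm.

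Over all members, the edgeR test of the arm shift thus called 2 of 10 lower in OKS + FoxO6, where it called 6.89% of all tested genes, and none higher, where it called 6.63%. At an unadjusted p under 0.05, 3 members were lower (Rbl1 besides Ccnd1 and Ccnd2) and 0 higher, and DESeq2 called 2 lower and 0 higher. The median log2 fold change was -0.17 over the members and -0.02 over all genes. Ccnd1 passed in every one of the 11 alternative fits of the arm shift, with values from -0.95 to -0.85. Ccnd2 passed in 10 of 11 and missed only without the day term (adjusted p = 0.0674).

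**Figure D4:**
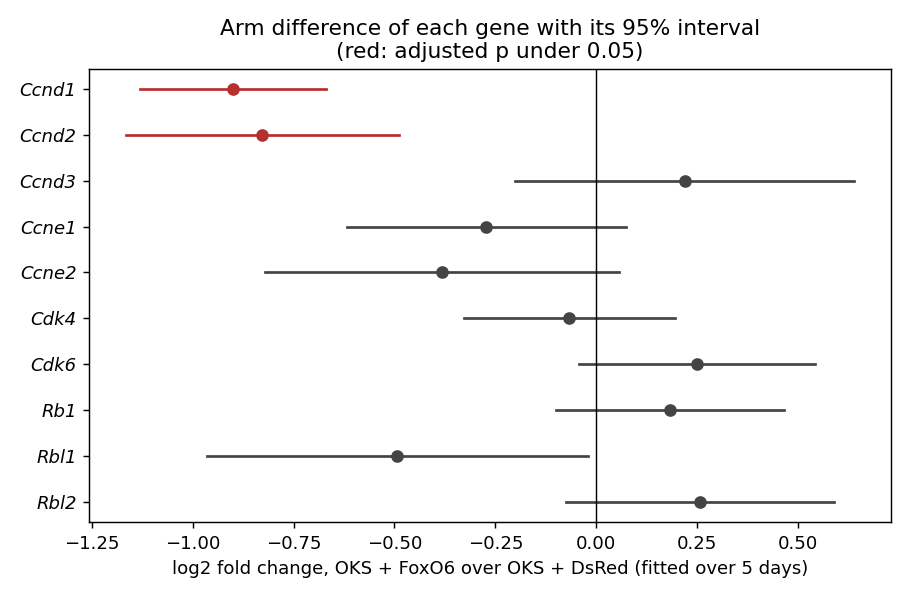
Fitted log2 fold change of OKS + FoxO6 over OKS + DsRed (horizontal axis) of each member over the 5 days, with its 95% interval as a line, red where the adjusted p was under 0.05. The intervals of Ccnd1 and Ccnd2 lie wholly below 0, and that of Rbl1 does too although its adjusted p was 0.161.

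Taken day by day, with a difference in log2(TPM + 1) past 2-fold as a description and no test, 0 to 3 members were past it on a day. No member was past 2-fold at day 0, where 12.3% of all genes were. At day 1, Ccnd1 and Ccne2 were past it, both lower in OKS + FoxO6, against 12.3% of all genes. There was no member past it at day 3 (14.9% of all genes) or at day 5 (16.6%). At day 7 Ccnd2 and Ccne2 were lower and Ccnd3 was higher, 3 of 10 members against 20.3% of all genes. By CPM there was 1 at day 1 (Ccnd1, without Ccne2) and 1 at day 3 (Ccnd2). There were 2 by CPM at day 5 (Ccnd2 and Rbl1) and 2 at day 7 (Ccnd2 and Ccnd3). The median difference of the members went from -0.17 at day 0 to -0.47 at day 7, while that of all genes went from 0.11 to -0.14.

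Genes around the members in the pathway were read in 6 lists. E2F target genes of S phase, which the pocket proteins restrain, had 12 of 16 members lower in OKS + FoxO6 by the edgeR arm shift, where 6.89% of all genes were, and 0 higher, where 6.63% were (0 at an unadjusted p under 0.05, and 0 with DESeq2). The list median was -0.52 log2 units, beside -0.02 for all genes. Ccna2, the cyclin of S phase, was at 101 to 139 TPM in OKS + DsRed and 51.5 to 87.1 TPM in OKS + FoxO6, without overlap (log2 fold change -0.72, adjusted p = 0.00689). Mcm5, a subunit of the replicative helicase, was at 102 to 136 TPM in OKS + DsRed and 65.0 to 91.6 TPM in OKS + FoxO6 (-0.55, adjusted p = 0.0116). Rrm2, a subunit of ribonucleotide reductase, had -0.65 (adjusted p = 0.0116) and Pola1, the catalytic subunit of DNA polymerase alpha, -0.79 (adjusted p = 0.0167). The count of 12 was 1 without day 5, 2 without day 3, 5 without day 0 and 8 without day 7. It was 9 with DESeq2, 6 with counts per effective length and 1, Ccna2, with no day term, and calls over all genes were also fewer without day 3 or day 5. Proliferation markers had 4 of 6 lower and 0 higher (0 at an unadjusted p under 0.05, and 0 with DESeq2), with a median of -0.53: Top2a (-0.67, adjusted p = 0.0123), Mki67 (-0.54, 0.0166), Ccnb1 (-0.60, 0.0184) and Aurkb (-0.53, 0.0408). Without day 5 or with no day term this count was 0, and without day 3 or with counts per effective length it was 1.

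As fitted, the regulators had 0 or 1 gene per list called in the arm shift, where 6.89% of all genes were called lower and 6.63% higher. Of the 7 CDK inhibitors, Cdkn2c (p18, an inhibitor of CDK4 and CDK6) was lower in OKS + FoxO6 (log2 fold change -0.84, edgeR adjusted p = 0.01), at 27.4 to 42.1 TPM in OKS + DsRed and 10.9 to 22.1 TPM in OKS + FoxO6. It was lost in the fit with no day term and in no other. None of the 7 was higher by edgeR or DESeq2, and 1 was at an unadjusted p under 0.05. The list median was -0.03. Over the days 4 of the 7 changed by edgeR, where 20.0% of all genes did, and 2 by DESeq2. From day 0 to day 7, Cdkn2a (the INK4A/ARF locus) rose by 2.46 log2 units (edgeR adjusted p = 0.00106) and Cdkn1b (p27) by 1.04 (adjusted p = 0.0162). Cdkn2b (p15) changed by -1.48 (edgeR adjusted p = 0.00694) and Cdkn1c (p57) by -1.56 (adjusted p = 0.0171), where 10.1% of all tested genes were called lower at day 7. For day 7 against day 0, DESeq2 called both rises and 1 of these 2 falls. Of the 12 genes of CDK activation and cyclin turnover, 1 was lower, Skp2, the F-box protein that targets p27 (-0.62, edgeR adjusted p = 0.0309). This call was lost with DESeq2, with counts per effective length, with no day term, and without day 1, 3, 5 or 7. The list had 2 calls with the length trend of each library taken out (Cks1b added) and without day 0 (Fbxw7 added). Of the 6 DREAM and MuvB subunits, 1 was lower, Mybl2 (-0.77, edgeR adjusted p = 0.0436), which was at 33.7 to 76.6 TPM in OKS + DsRed and 18.4 to 36.9 TPM in OKS + FoxO6. This call was lost with counts per effective length, with no day term, and without day 0, 3, 5 or 7. In the arm shift none of the 10 E2F factors and partners passed in the edgeR fit as reported or with DESeq2, and at an unadjusted p under 0.05 there were 2 lower and 1 higher. E2f7, a repressor among the E2Fs, was close to the threshold (-0.70, edgeR adjusted p = 0.0511) and passed as lower with RLE size factors, with no filter, under both length corrections and without day 1. The list median was 0.06. Over the days 1 of these 10 changed, E2f2, an activator (edgeR adjusted p = 0.0125, 1 also with DESeq2), and it did not pass without day 0 or with counts per effective length.

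**Figure D5:**
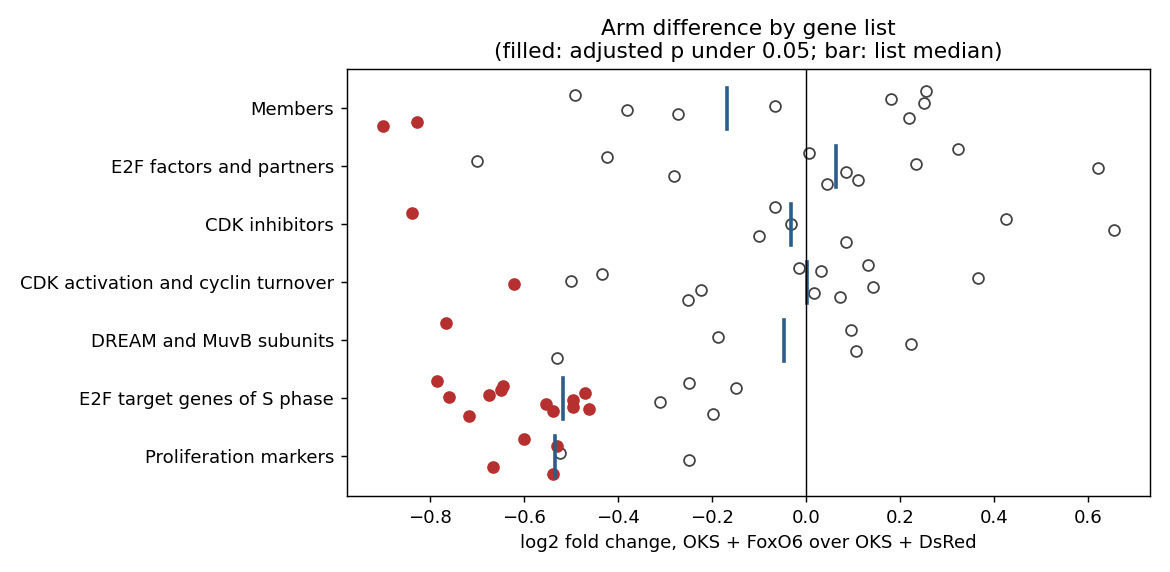
Fitted log2 fold change of OKS + FoxO6 over OKS + DsRed (horizontal axis) of each gene, 1 point per gene, in the 10 members and 6 lists, filled where the adjusted p was under 0.05, with the list median as a bar. The medians of the E2F targets (-0.52) and proliferation markers (-0.53) lie left of those of the members (-0.17) and the other lists.

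Some markers of other cells and states differed between the arms, and no macrophage marker was called. Summed fibroblast markers (8 genes) were at 1400 to 5590 TPM in OKS + DsRed and 1800 to 5890 TPM in OKS + FoxO6. Of these 8, Twist1 was higher in OKS + FoxO6 (log2 fold change 1.00, edgeR adjusted p = 0.00237), and Prrx1 (-0.78, adjusted p = 0.00249) and Col3a1 (-0.63, adjusted p = 0.0196) were lower. Pluripotency markers (6 genes) summed to 0.78 to 258 TPM in OKS + DsRed and 0 to 34 TPM in OKS + FoxO6, and Nanog was lower in OKS + FoxO6 (-3.00, edgeR adjusted p = 0.00617, with 0 TPM at days 0 and 1 in both arms). The macrophage sum (6 genes) was 14.1 to 58.4 and 19.5 to 29.0 TPM, from Cd68 (7.95 to 52.6 TPM), Lyz2 (6.17 TPM or less) and Aif1 (3.29 TPM or less), with Ptprc, Csf1r and Adgre1 under 1 TPM in every library. Of these, Cd68 alone was tested, and its arm difference missed the threshold (log2 fold change -0.50, edgeR adjusted p = 0.382). The endothelial sum (5 genes) was 20.9 to 54.8 and 30.5 to 142 TPM, for the most part from Kdr and Tek, with Cdh5 at 1.24 TPM or less and Emcn at 0.26 TPM or less. Pecam1, which did not pass the filter on low counts, was at 0 to 5.73 TPM in OKS + DsRed and 0 to 0.76 TPM in OKS + FoxO6. Both Kdr (2.20, edgeR adjusted p = 0.0301) and Tek (0.96, adjusted p = 0.0012) were higher in OKS + FoxO6. Like that of Ccnd3, the arm differences of Col1a2 (0.36 log2 units per day, edgeR adjusted p = 0.00163) and Kdr (0.83, adjusted p = 0.00296) rose with time. Col1a2 was at 262 TPM in OKS + DsRed and 758 TPM in OKS + FoxO6 at day 7. The part of these cells in the differences of the members was not tested.

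Most members share their locus with a gene on the opposite strand, and the sources used here do not state whether the counting used strand. Ccnd1 overlaps LTO1, at 24.8 to 64.16 counts against 697 to 1481 for Ccnd1, and Ccnd3 overlaps Bysl, at 48.86 to 138.68 counts against 196 to 560. Ccne2 overlaps Ints8, at 49 to 143.75 counts against 13 to 59 for Ccne2. Cdk4 overlaps Tspan31 (80.42 to 201 counts), Rb1 overlaps Lpar6 (20.4 to 112 counts) and Rbl2 overlaps Aktip (20 to 59.03 counts). Gene coordinates were read from GENCODE M21 (GRCm38).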

How the data were processed

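The authors aligned reads with RSEM and Bowtie2 to the GENCODE M13 transcripts (mm10) and deposited, gene by gene and library by library, RSEM's expected counts (not normalized) and TPM. The labels name a VAHTS mRNA-seq kit and the methods a TruSeq kit, and strandedness is not given in the sources used here. Libraries held 1208379 to 2225750 expected counts (median 1601151), which bounds the precision of the scarce members to their 13 to 112 reads. Expected counts were rounded and fitted with edgeR 4.0.16 in R 4.3.3 (quasi-likelihood, TMM, filterByExpr, day as a factor and arm), and p-values were Benjamini-Hochberg adjusted over 12212 genes, with a threshold of 0.05. The trend is the arm difference per day, added to that model. Differences per day used log2(TPM + 1), which understates changes of low genes, and CPM ratios have exact binomial 95% intervals. Other steps ran in Python 3.11.15 (pandas 2.3.3, scipy 1.17.1, and matplotlib 3.10.9 for plots, with statsmodels 0.14.6 for smoothing). DESeq2 1.42.0, other size factors, no filter, length offsets, no day term and left-out days or libraries were alternatives, and the fits were tested on simulated data. The members and lists were chosen with earlier results of these data known. Within a list, the text names genes past the threshold, at most 4 per test by smallest p, and markers of other cells by their sums and the markers past the threshold, chosen after their values were seen, as was E2f7.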

Additional observations from a re-analysis of the deposited data

Results flagged for a closer look

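The arm difference of Ccnd3 changed over the days, which marks it for a closer look, since the 2 arms moved unlike each other under the same time course. It grew by 0.20 log2 units per day (SE 0.0389, edgeR adjusted p = 0.025), from a CPM ratio of 0.732 at day 0 to 2.17 at day 7. Over its 10 alternative fits it stayed between 0.157 and 0.217 per day and passed the threshold in 6.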

How the results depend on the processing

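Ccnd1 kept its lower level in OKS + FoxO6 in all 11 alternative fits and Ccne2 its fall to day 7 in all 15, and no value that had passed a threshold turned its direction. Members lower by arm went from 2 to 1 with no day term and to 3 with counts per effective length (Ccne2 added). Members that changed over the days went from 3 to 1 with DESeq2 and with counts per effective length, to 4 with no filter (Ccnd3 added, adjusted p = 0.00505), and were 0 to 3 with a day left out (0 without day 0, and 1, Rb1, without day 1). Members lower at day 7 went from 2 to 1 with DESeq2 and with counts per effective length, and were 1 to 2 with a library left out (1 without OKS + DsRed day 0 or day 7, or without OKS + FoxO6 day 0, and 2 without OKS + FoxO6 day 7, Ccnd3 in place of Ccne1). Falling trends went from 0 to 1 with no filter (Ccnd2, adjusted p = 0.0152). Rising trends went from 1 to 0 with counts per effective length, and were 0 to 1 with a day left out (0 without day 0, 3 or 7). Members past 2-fold went from 2 to 1 at day 1 with CPM, from 0 to 1 at day 3 with CPM or with a pseudocount of 0.1, and at day 5 from 0 to 2 with CPM and from 0 to 1 with the length trend removed. At day 7 the 3 members were 2 with CPM (without Ccne2) and 2 with the length trend removed (without Ccnd2, at -0.92). The per-length fit was chosen after the data were seen. For all genes, calls by arm were 841 lower and 810 higher, and these were 38 and 124 with no day term, 373 and 400 without day 3, and 335 and 370 without day 5. Falling trends over all genes were 75, and were 319 with no filter, 46 with counts per effective length, 31 without day 0, 162 without day 5 and 40 without day 7. Rising trends were 121, and were 329 with no filter, 222 with the length trend of each library taken out, 70 with counts per effective length, 77 without day 3 and 51 without day 7. Genes that changed over the days were 2448, and were 3804 with no filter and 1113 without day 0. The cause of these changes was not tested. Day entered every fit of the arm shift but that with no day term, so the arms were otherwise compared within days. Scarce members rest on few reads, which limits Ccne2, Rbl1 and Rbl2 most.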

Other observations

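The genes whose levels ran most alike to those of 3 members over the 10 libraries were found by Pearson's r of log2(TPM + 1) among 11481 genes with a mean of at least 5 TPM. This is a description, since the libraries share their arm, their days and their depth. For Ccnd1 they were Crabp2, a retinoic acid binding protein (r = 0.986, 27.8 to 237 TPM), Pycrl, an enzyme of proline synthesis (r = 0.986, 15.1 to 38.3 TPM), and Limk1, a kinase of the actin cytoskeleton (r = 0.969, 31.6 to 77.5 TPM). For Ccnd2 they were Snn (r = 0.939), Plcl1 (r = 0.935) and Zfp354c (r = 0.924). For Ccne1 they were Cdo1, the cysteine dioxygenase (r = 0.938), Elovl6, a fatty acid elongase (r = 0.926), and Cemip, a hyaluronan binding protein (r = 0.924). The CDK inhibitor Cdkn1a (p21) had a rising arm difference like Ccnd3, by 0.16 log2 units per day (edgeR adjusted p = 0.0393). It was at 674, 860, 791, 550 and 415 TPM at days 0, 1, 3, 5 and 7 in OKS + DsRed and at 513, 747, 933, 711 and 614 TPM in OKS + FoxO6, higher in OKS + FoxO6 from day 3 on.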
